A study of Mus musculus with 6 samples.

Results

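Pulmonary surfactant is the film of phospholipid and protein that lowers surface tension in the alveoli, and it is made by the alveolar type II cell. The 10 genes followed here encode its 4 proteins and parts of the machinery that makes, remodels, packs and processes its lipids and proteins: Sftpb, Sftpc, Sftpa1, Sftpd, Pcyt1a, Lpcat1, Abca3, Lamp3, Napsa and Slc34a2. Lung RNA of 6 wild type mice was measured, 3 fed a high fat diet and 3 fed a control diet, with 1 Affymetrix array each. The labels used here give no strain, sex, age, diet composition or diet length, and do not say whether the mice shared litters or cages. The p-values set a diet difference against the spread of mice within a group and treat these 6 mice as independent. Members are all probe sets whose platform annotation names only 1 of these symbols. This gave 21 probe sets for 9 of the 10 genes, out of 34945 probe sets for 18193 genes with a single symbol on the array. Lamp3, a lysosome-associated membrane protein of the lamellar body, had 0 such probe sets, since its only 1 is shared with another gene, and it is not described further.

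Surfactant protein B and surfactant protein C, the products of Sftpb and Sftpc, are small hydrophobic proteins that help phospholipid spread at the air surface. Surfactant proteins A and D, the products of Sftpa1 and Sftpd, are collectins that bind sugars on microbes and take part in host defence. Phosphatidylcholine, the main surfactant lipid, is made through the CDP-choline-forming enzyme encoded by Pcyt1a and remodelled by the acyltransferase Lpcat1. The transporter Abca3 then carries the lipid into lamellar bodies, the storage organelles from which surfactant is secreted.

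Few surfactant probe sets passed the test between the diets, and the intervals given below are wide, so modest differences were not detectable for many of these genes with 3 mice a group. Of the 19 member probe sets bright enough to be tested, 1 was called higher in high fat mice, a probe set of Lpcat1, and 1 was called lower, a probe set of Napsa. A call here is a Benjamini-Hochberg adjusted p under 0.05 in the limma fit over all 27022 tested probe sets. In that fit 4.63 percent of all tested probe sets were called higher and 8.27 percent lower, 12.9 percent in all. With 1 probe set per gene, the brightest, 0 of 9 members were called (smallest limma adjusted p = 0.0986 over 12689 genes), where 6.75 percent of all genes were called. At an unadjusted limma p under 0.05 there were 3 of these 9, against 25.5 percent of all genes, and 7 of the 19 probe sets, against 31.1 percent of all probe sets. Small differences in 1 direction were common among the members. The log2 difference, high fat minus control, was above 0 for 7 of 9 genes and for 13 of 19 probe sets, against 56.4 percent of all genes and 44.6 percent of all probe sets. The median over the 9 genes was 0.27, against 0.06 over all genes.

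The arrays carry features that move with diet and touch every value below. The values are MAS5 signals on a linear scale, with an equal trimmed mean on every array. Their median over all probe sets was 113.4 to 128.7 on high fat arrays and 143.3 to 150.3 on control arrays, and bright probe sets in general stood higher in high fat mice. Among 191 probe sets with a mean log2 signal of 14 or more, the median log2 difference was 0.19 and 81.2 percent were above 0. Among 9834 tested probe sets below a log2 signal of 8, it was -0.26. For Gapdh, the 3'/5' signal ratio, a sign of how complete the labelled RNA was, came to 0.854 to 0.957 on high fat and 0.743 to 0.795 on control arrays. For beta-actin it came to 1.5 to 1.55 on high fat and 1.19 to 1.44 on control arrays, so both ratios were higher on every high fat array. The part of these features in the results was not tested. In whole lung a lower signal from fewer cells of a type and one from less RNA per cell cannot be told apart.

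The gene for surfactant protein B had signals of 23049, 26620 and 27594 in the high fat mice, against 19820, 21791 and 22579 in the control mice. All 3 high fat mice stood above all control mice, by a narrow margin. The mean was 25754 ± 2393 in high fat and 21397 ± 1421 in control mice (SD, n = 3 each), 1.2-fold with a 95 percent interval of 0.973 to 1.48, and Sftpb was not called (limma adjusted p = 0.214).

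Sftpc had signals of 46713, 45581 and 57324 in high fat mice, against 32996, 69407 and 41967 in control mice. The high fat mice lay inside the range of the controls, whose lowest and highest values spanned the widest range of the 4 surfactant protein genes. The fold was 1.08 with an interval of 0.719 to 1.63 (limma adjusted p = 0.799). Its sign followed 1 mouse: the log2 difference was 0.11 over all mice and -0.12 without control replicate 1. A second Sftpc probe set, of a kind whose probes can cross-hybridise, was dim, at 80.2, 52.8 and 47.2 in high fat and 4.34, 138 and 36.1 in control mice, and was left out of the test.

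Sftpa1 was measured by 2 probe sets. The brighter had signals of 34514, 35831 and 36165 in high fat mice and 25022, 36263 and 33158 in control mice. The other had 12542, 16778 and 12049 in high fat mice and 9489, 11527 and 13027 in control mice. The groups overlapped in both. The folds were 1.14 (95 percent interval 0.88 to 1.48, limma adjusted p = 0.468) and 1.21 (0.925 to 1.59, limma adjusted p = 0.305). The high fat mice differed from each other by less than the controls did in the brighter probe set, with SDs of 873 and 5805, but not in the other, with SDs of 2599.8 and 1776.

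Sftpd had signals of 24134, 27212 and 25856 in high fat mice, against 17444, 21948 and 21200 in control mice. The groups did not overlap. The mean was 25734 ± 1542 in high fat and 20197 ± 2413 in control mice (SD, n = 3 each), and the 1.28-fold difference, with an interval of 1.03 to 1.59, did not pass the adjustment (limma adjusted p = 0.125). Without control replicate 1, the lowest mouse, the log2 difference was 0.25, against 0.35 over all mice.

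**Figure D1:**
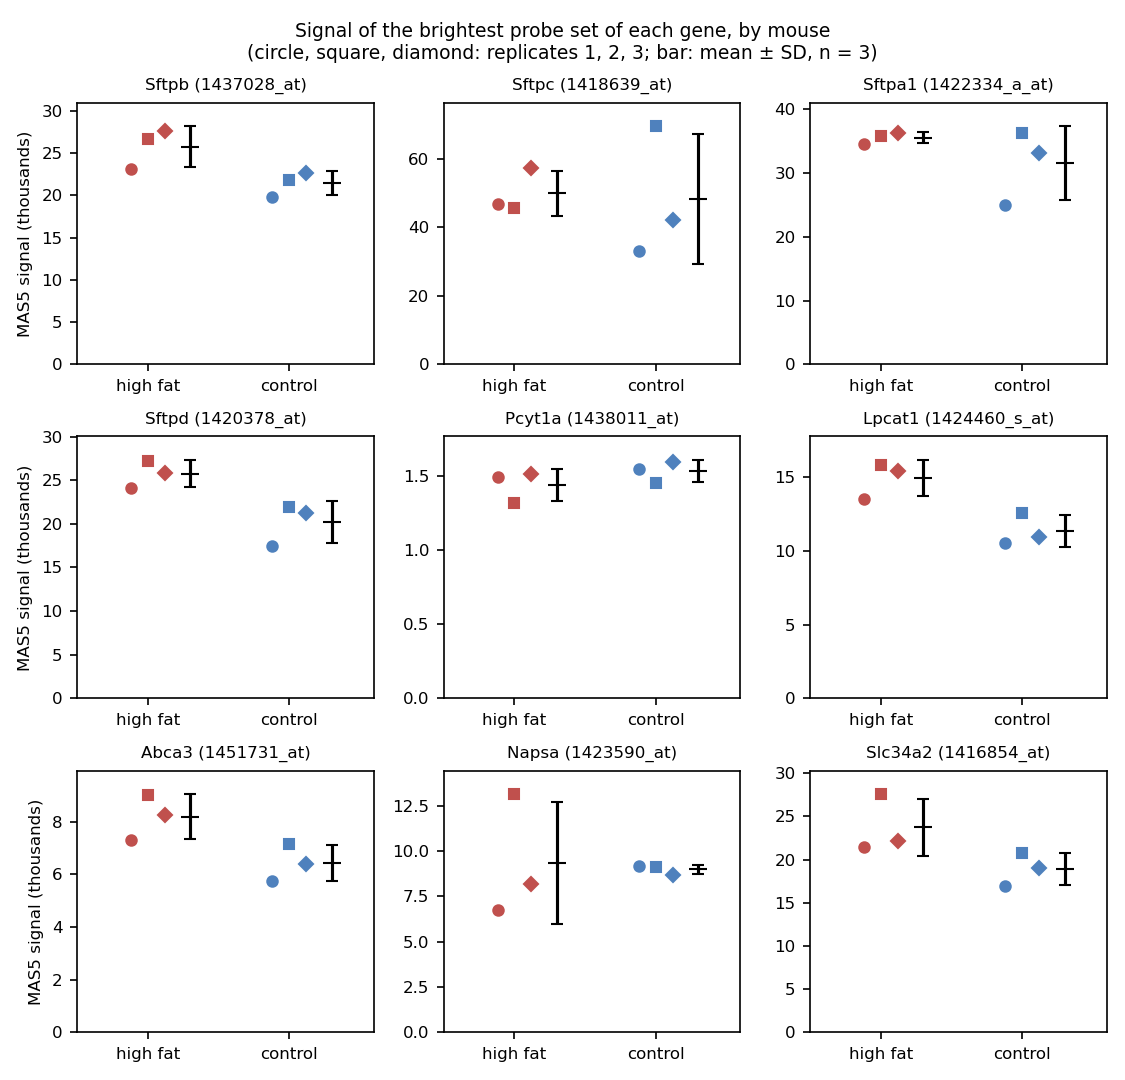
MAS5 signal on a linear scale (vertical axes, from 0) of the brightest probe set of each of 9 surfactant genes, with the high fat mice at the left and the control mice at the right of each panel; symbols are the 3 mice of a group and the bar is the mean ± SD. For Sftpb, Sftpd, Lpcat1, Abca3 and Slc34a2 all high fat mice lie above all control mice, while Sftpc, Sftpa1, Pcyt1a and Napsa overlap.

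The 5' flanks of Sftpb, Sftpa1, Lpcat1 and Slc34a2 are shown because they stand for a hydrophobic protein, a collectin, a lipid enzyme and a transporter that all leaned toward higher signals. Each run is the 250 bases before the RefSeq transcript start on the plus strand of GRCm38.p6. These are chr6:72304360-72304609 for Sftpb, chr14:41131538-41131787 for Sftpa1, chr13:73466981-73467230 for Lpcat1 and chr5:53049103-53049352 for Slc34a2. Capitals mark matches to 4 motifs. CTCAAG is a form of the site of NKX2-1, TGTTTNC of forkhead factors and TTGCGCAA of C/EBP factors, all searched on both strands, and TATAAA is a TATA box searched on the strand shown.
Sftpb: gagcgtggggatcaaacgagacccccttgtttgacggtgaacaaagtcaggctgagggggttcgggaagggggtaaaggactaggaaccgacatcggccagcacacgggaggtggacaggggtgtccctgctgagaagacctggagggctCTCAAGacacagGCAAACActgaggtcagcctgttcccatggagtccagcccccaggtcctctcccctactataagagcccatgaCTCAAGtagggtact
Sftpa1: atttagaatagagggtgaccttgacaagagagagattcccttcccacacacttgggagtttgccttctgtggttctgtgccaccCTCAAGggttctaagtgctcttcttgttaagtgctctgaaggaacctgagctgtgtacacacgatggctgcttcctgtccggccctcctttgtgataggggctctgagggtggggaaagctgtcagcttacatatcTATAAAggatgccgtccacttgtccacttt
Lpcat1: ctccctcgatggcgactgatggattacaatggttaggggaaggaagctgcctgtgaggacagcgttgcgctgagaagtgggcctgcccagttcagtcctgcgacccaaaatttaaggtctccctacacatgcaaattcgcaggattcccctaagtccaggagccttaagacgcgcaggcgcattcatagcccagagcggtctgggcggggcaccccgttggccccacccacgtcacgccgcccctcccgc
Slc34a2: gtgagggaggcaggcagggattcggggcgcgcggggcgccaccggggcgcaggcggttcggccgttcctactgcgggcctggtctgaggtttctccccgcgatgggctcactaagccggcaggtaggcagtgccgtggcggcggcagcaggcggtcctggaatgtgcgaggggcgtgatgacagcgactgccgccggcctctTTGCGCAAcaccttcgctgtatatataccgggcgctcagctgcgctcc
The Sftpb flank held CTCAAG at 100 and at 15 bases before the start, counted from the first base of the match, and a forkhead match at 88 on the other strand. That of Sftpa1 held CTCAAG at 166 and a TATA box at 30, and that of Slc34a2 a C/EBP match at 48. No match overlapped another. Among 32851 mouse flanks of this length, 13.3 percent held CTCAAG, 17.8 percent the forkhead motif, 0.164 percent the C/EBP motif and 7.59 percent the TATA box. None of the 4 motifs was found in the Lpcat1 flank, which says only that these letters are not in that window. Of the 10 genes, 7 had a flank in the RefSeq table, and a match describes letters, not a bound site.

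Lpcat1, the acyltransferase that restores the saturated chains of surfactant phosphatidylcholine, held the only probe set called higher. Probe set 1451359_at had signals of 7815, 12035 and 9469 in high fat mice, against 4854, 6095 and 5215 in control mice. The lowest high fat mouse stood above the highest control mouse. The mean was 9773 ± 2127 in high fat and 5388 ± 638 in control mice (SD, n = 3 each), 1.79-fold with an interval of 1.37 to 2.34 (limma adjusted p = 0.0184). The call was lost without control replicate 1 (limma adjusted p = 0.0523) and without control replicate 3 (0.0736), with log2 differences of 0.77 and 0.82 against 0.84 over all mice.

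A pair of brighter Lpcat1 probe sets, designed on the same target sequence, showed smaller differences. Probe set 1424460_s_at had signals of 13556, 15860 and 15402 in high fat mice, against 10558, 12555 and 10968 in control mice, and the groups did not overlap. Its fold was 1.32 with an interval of 1.08 to 1.61 (limma adjusted p = 0.0741). Probe set 1424459_at had 11471, 12976 and 10406 in high fat mice and 8955, 7535 and 10578 in control mice, with 1 control mouse above the lowest high fat mouse. Its fold was 1.3 (limma adjusted p = 0.139). A further pair, designed on another target sequence, was dim. Probe set 1420293_at averaged 108 ± 27.7 in high fat and 105 ± 19.5 in control mice (SD, n = 3 each), and 1420294_at averaged 45.4 ± 28.6 and 43.6 ± 20.5 and was not tested.

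The Lpcat1 probe sets differed in size on the same arrays. The log2 ratio of 1451359_at to 1424460_s_at was -0.79, -0.4 and -0.7 in high fat mice and -1.12, -1.04 and -1.07 in control mice. The groups did not overlap, and the difference was 0.45. An exact permutation test gave a two-sided p = 0.1, the smallest that 3 against 3 allows, and an adjusted p = 0.25 over the 10 probe set pairs compared within genes. What the probe sets detect differently was not tested.

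Pcyt1a, which encodes the enzyme of the rate-limiting step of phosphatidylcholine synthesis, was not called by any of its 4 probe sets, and these pointed both ways. The brightest, 1438011_at, had signals of 1492, 1315 and 1512 in high fat mice, against 1544, 1450 and 1596 in control mice. The groups overlapped, and the fold was 0.94 with an interval of 0.786 to 1.12 (limma adjusted p = 0.634). Probe set 1424453_at had 544, 396 and 537 in high fat mice, against 613, 580 and 673 in control mice. Here the groups did not overlap, but the fold of 0.785 did not pass the test (limma adjusted p = 0.193). The other pair, designed on a shared target sequence, had folds of 1.08 and 0.935 (limma adjusted p = 0.606 and 0.748).

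Abca3, the lamellar body lipid transporter whose loss causes fatal surfactant deficiency in newborn mice and humans, had probe sets that leaned in opposite directions. The brightest, 1451731_at, had signals of 7310, 8997 and 8262 in high fat mice, against 5761, 7135 and 6403 in control mice. The groups did not overlap, at a 1.27-fold difference with an interval of 1.04 to 1.56 (limma adjusted p = 0.111). A probe set on the same target, 1425496_at, had 1690, 2563 and 2776 in high fat mice and 1650, 1457 and 2227 in control mice, overlapping, with a fold of 1.31 (limma adjusted p = 0.256). The dim 1451869_at had 158, 191 and 143 in high fat mice, against 211, 301 and 229 in control mice. It stood lower in all high fat mice, at 0.666-fold (limma adjusted p = 0.126).

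Napsa encodes napsin A, an aspartic protease that takes part in trimming the precursor of surfactant protein B. Its bright probe set, 1423590_at, had signals of 6731, 13135 and 8164 in high fat mice, against 9164, 9129 and 8689 in control mice. The controls were close together while high fat replicate 2 stood far above and replicates 1 and 3 below them. The fold was 0.998 with an interval of 0.707 to 1.41 (limma adjusted p = 0.993).

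The other Napsa probe set, 1430744_at, was the only member called lower. It had signals of 118, 245 and 224 in high fat mice, against 354, 468 and 389 in control mice. The groups did not overlap. The mean was 196 ± 67.7 in high fat and 404 ± 58.3 in control mice (SD, n = 3 each), 0.464-fold with an interval of 0.296 to 0.73 (limma adjusted p = 0.0389). The call was lost without any 1 of the control mice (limma adjusted p = 0.0715, 0.13 and 0.109 without replicates 1, 2 and 3) and without high fat replicate 1 (0.0525). It was also lost with quantile normalization (0.0636) and with arrays centred on their median (0.0671). The log2 ratio of the dim to the bright Napsa probe set was -5.83, -5.75 and -5.19 in high fat mice and -4.69, -4.29 and -4.48 in control mice (exact permutation p = 0.1, adjusted p = 0.25). All 10284 tested probe sets with a mean log2 signal from 8 to 10, the class of this probe set, had a median log2 difference of -0.03, against -1.11 for this one.

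Slc34a2, the sodium-phosphate cotransporter of the type II cell surface that takes up phosphate left from surfactant lipid breakdown, had signals of 21472, 27552 and 22194 in high fat mice. In control mice it had 16993, 20716 and 19019. All high fat mice stood above all control mice. The fold was 1.25 with an interval of 0.991 to 1.58 (limma adjusted p = 0.176).

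**Figure D2:**
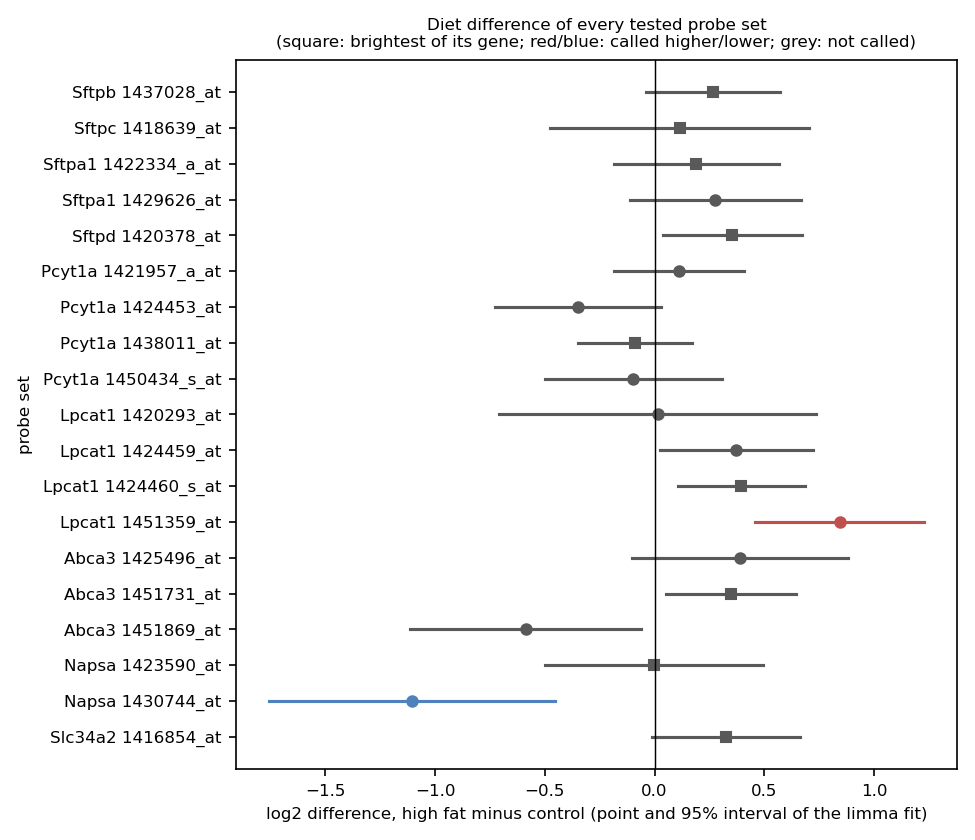
Log2 difference, high fat minus control (horizontal axis), of each of the 19 tested probe sets, with its 95 percent interval; squares are the brightest probe set of a gene. The Lpcat1 probe set 1451359_at at 0.84 and the Napsa probe set 1430744_at at -1.11 are the called ones, and most other points lie between -0.35 and 0.4.

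Of the 19 tested probe sets, the groups did not overlap in 6 with higher and 3 with lower signals in high fat mice, where 14.6 and 21.7 percent of all tested probe sets were apart in these directions and 36.2 percent in either. Among the brightest probe sets of the 9 genes, 5 were apart toward higher signals, against 19.7 percent of all genes in that direction and 31.8 percent in either. These were Sftpb, Sftpd, Lpcat1, Abca3 and Slc34a2. The 3 apart toward lower signals, of Pcyt1a, Abca3 and Napsa, were all dimmer probe sets of their genes.

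The members were also set beside all probe sets of their own brightness. The 5 member probe sets with a mean log2 signal of 14 or more, of Sftpb, Sftpc, Sftpa1, Sftpd and Slc34a2, were all above 0, with a median log2 difference of 0.27 and a range of 0.11 to 0.35. The median of all 191 probe sets of that brightness was 0.19. In the class from 12 to 14, the 6 member probe sets had a median of 0.36 and 5 were above 0, against 0.08 and 61.6 percent above 0 for all 1317. These 6 were of Sftpa1, Abca3, Napsa and Lpcat1. The Lpcat1 ones, designed on 1 target sequence, were at 0.37, 0.4 and 0.84, so this median rests largely on 1 gene. In the class from 8 to 10, the 4 member probe sets, of Pcyt1a and Napsa, had a median of -0.22 and 1 was above 0, against -0.03 and 46.7 percent for all 10284.

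**Figure D3:**
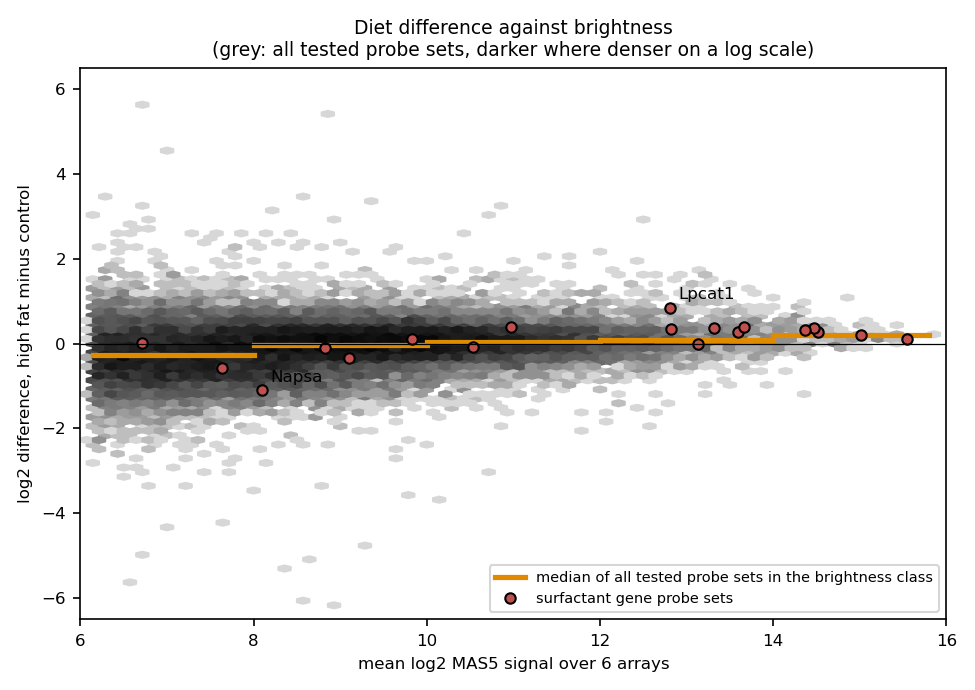
Log2 difference, high fat minus control, against the mean log2 signal over the 6 arrays, for all 27022 tested probe sets (grey) and the 19 surfactant probe sets (red), with the median of all probe sets in each brightness class (orange). The orange line climbs from -0.26 in the dimmest to 0.19 in the brightest class, and most bright surfactant probe sets sit a little above it.

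How the arrays were scaled decided whether these genes were called. Arrays centred on their median signal moved the median log2 difference of all genes up by 0.27. Then 5 members, Sftpb, Sftpd, Lpcat1, Abca3 and Slc34a2, were called higher (limma adjusted p = 0.0139 to 0.0354 over genes), but so were 24.1 percent of all genes, and 95.4 percent of all gene calls were in that direction, against 67.4 percent as deposited. Of the 19 member probe sets 7 were then called higher and 0 lower, where 16.1 percent of all probe sets were called higher and 4.02 percent lower. With quantile normalization 0 of 9 genes were called, where 5.87 percent of all genes were called higher and 2.65 percent lower, and 1 member probe set was called higher and 0 lower, against 5.14 and 6.34 percent of all probe sets. Sftpb was at 0.01 on the log2 scale (95 percent interval -0.24 to 0.26), Sftpd at 0.12 (-0.1 to 0.33), Sftpa1 at 0.04 and Sftpc at -0.06 (-0.26 to 0.14). Lpcat1 was at 0.18 by its brightest probe set, while 1451359_at stayed called under both scalings, at 0.72 with quantile normalization (limma adjusted p = 0.0213) and 1.12 with median centring (0.00751).

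**Figure D4:**
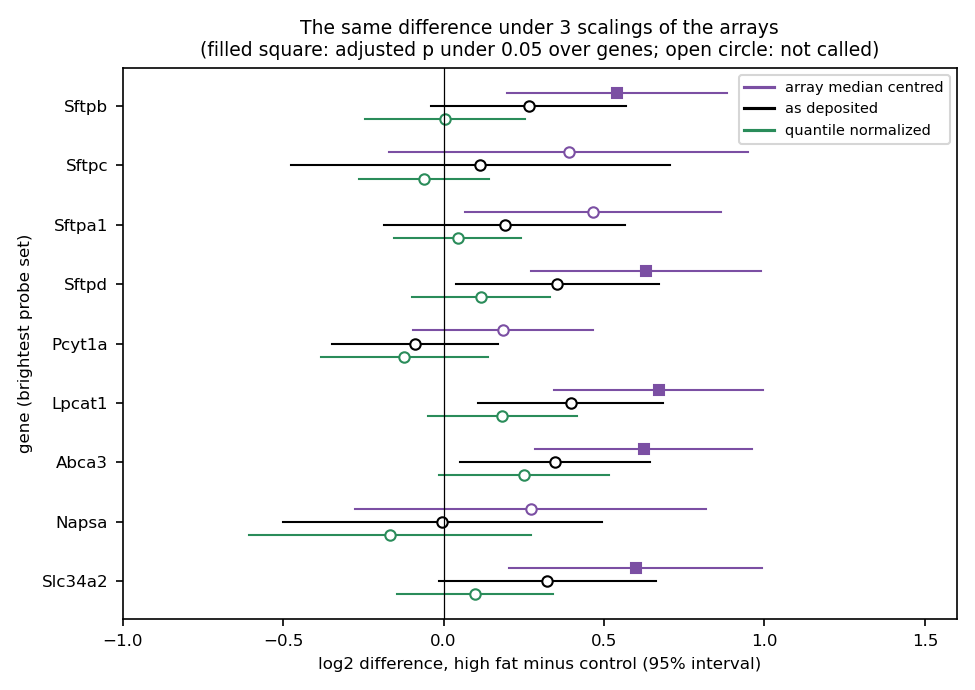
Log2 difference, high fat minus control, with 95 percent interval, for the brightest probe set of each of the 9 genes under 3 scalings of the arrays: centred on the array median (purple), as deposited (black) and quantile normalized (green). Filled squares are calls: 5 with median centring, 0 as deposited and 0 with quantile normalization.

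Individual mice shaped the small differences. On the log2 scale relative to the control mean, the median of the 9 genes was 0.15, 0.44 and 0.32 in high fat replicates 1 to 3, and -0.15, 0.14 and 0.01 in control replicates 1 to 3. Control replicate 1 was the lowest of the 6 mice for 7 of 9 genes, all but Pcyt1a and Napsa. High fat replicate 2 was the highest for 5 of them, Sftpd, Lpcat1, Abca3, Napsa and Slc34a2. It was the lowest for Pcyt1a, whose values ran against those of the other genes.

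The genes varied together to different degrees. Across the 6 arrays, which share their scaling, Pearson's r of log2 signal was 0.98 between Lpcat1 and Abca3, 0.97 between Sftpd and Abca3 and 0.92 between Sftpb and Sftpd. It was lower for Sftpc, at 0.52 with Sftpd and 0.4 with Sftpb. Pcyt1a ran the other way, at -0.86 with Slc34a2, and Napsa had 0.03 with Sftpa1. The 5 genes outside the list whose profile was most like the mean profile of the members, among 12689 genes and over 6 arrays, were Cxcl15, Cenpx, Cep57l1, Npc2 and Prdm16 (r = 0.98 to 0.993). Cxcl15, a chemokine of lung epithelium, had signals of 26032, 30274 and 30563 in high fat mice and 19015, 26440 and 23424 in control mice. Npc2, a lysosomal cholesterol-binding protein, had 29509, 34903 and 32055 in high fat and 20321, 27592 and 25244 in control mice. With so few arrays these are descriptions.

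Of 13 tested markers of the type II cell outside the 10 genes, 3 rose by their brightest probe set, 0 fell and all 13 were above 0, where 4.56 percent of all genes were called higher and 2.2 percent lower. The median log2 difference was 0.3, against 0.06 over all genes. Lgi3, a secreted leucine-rich repeat protein, averaged 2113 ± 254 in high fat and 1384 ± 84.9 in control mice (SD, n = 3 each; 1.52-fold, limma adjusted p = 0.0282), but 2 dimmer probe sets of it were at 0.01 and 0.02 on the log2 scale. S100g, a calcium-binding protein, rose 1.81-fold and Acoxl, related to acyl-CoA oxidases, 1.45-fold (limma adjusted p = 0.0441 and 0.0254). Each of the 3 was called in 1 of 6 fits with 1 mouse left out. The count for the list was 0 with eBayes without trend, 1 when the probe sets of each gene were averaged and 6 with median centring. With that centring 24.1 percent of all genes were called higher. The lysozyme genes Lyz1 and Lyz2 were at 0.17 and 0.08 on the log2 scale and were not called (limma adjusted p = 0.686 and 0.829). The summed signal of the list was 152337 to 165459 in high fat and 125297 to 163148 in control mice, so the ranges overlapped. Only markers bright enough to be tested are counted here, so an absent one could not show, and 2 more on the list were not tested.

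Of 14 tested transcription factors that act on surfactant genes, 4 were called higher by their brightest probe set, Cebpa, Srebf1, Foxa1 and Stat3, and 0 lower. Over all genes 4.56 percent were called higher and 2.2 percent lower. The median log2 difference of the 14 was 0.42, against 0.06 over all genes. The count called higher was 0 with eBayes without trend, 2 when the probe sets of each gene were averaged and 9 with median centring. Under median centring 24.1 percent of all genes were called higher. Cebpa, a C/EBP factor needed for type II cell maturation and also abundant in fat cells, had signals of 3776, 5470 and 4872 in high fat mice, against 2390, 2371 and 2782 in control mice (1.85-fold, limma adjusted p = 0.015). Srebf1, which drives fatty acid synthesis genes, averaged 2669 ± 310 in high fat and 1639 ± 70.5 in control mice (SD, n = 3 each; 1.62-fold, limma adjusted p = 0.016). Foxa1, a forkhead factor of airway and alveolar epithelium, rose 1.47-fold (limma adjusted p = 0.0484). The Foxa1 call was lost with quantile normalization (limma adjusted p = 0.0673), no filter (0.0572) and eBayes without trend (0.126). It was also lost when the probe sets of each gene were averaged (0.063). With 1 mouse left out, Cebpa was called in 5 of 6 fits, Srebf1 in 4 and Foxa1 in 1.

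Stat3, a cytokine-activated factor, rose 1.74-fold by its brightest probe set (limma adjusted p = 0.0111). Its other tested probe sets were at 0.44, -0.34 and -1.21 on the log2 scale, the last of them called lower (limma adjusted p = 0.0192 over probe sets). The first of these averaged 3276 in high fat and 2418 in control mice. The ones below 0 were dim, averaging 108 and 151 in high fat and 139 and 340 in control mice. The unweighted mean over all Stat3 probe sets was -0.08, so no direction is given for the gene. Nkx2-1, the lineage factor of lung epithelium, was at -0.07 and not called (limma adjusted p = 0.903), nor was Foxa2 (0.2, 0.402) or Etv5 (-0.26, 0.413). With 1 mouse left out, 1 to 4 of the 14 factors were called higher. Adipocyte transcripts were more abundant in the high fat lungs, and their part in these differences was not tested. Of 7 tested adipocyte markers 6 were called higher by their brightest probe set and 0 lower, where 4.56 percent of all genes were called higher. Their median log2 difference was 2.42. Fabp4 rose 7.66-fold and Plin4 4.71-fold (limma adjusted p = 0.00218 and 0.00352). With 1 mouse left out 5 to 7 were called, and 5 with eBayes without trend. Their summed signal was 23755 to 33502 in high fat and 2873 to 6498 in control mice. A further 3 genes of the list were not tested.

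Of 20 tested genes of choline transport and phosphatidylcholine synthesis, 1 rose, 1 fell and 18 were not called, with a median of 0.27, where 4.56 percent of all genes were called higher and 2.2 percent lower. Agpat2, an acyltransferase of phosphatidic acid synthesis that fat cells depend on, had signals of 1804, 1570 and 2030 in high fat mice, against 649, 592 and 1081 in control mice (2.4-fold, limma adjusted p = 0.0166). Slc44a2, a choline transporter-like protein, averaged 10766 ± 1276 in high fat and 15798 ± 1100 in control mice (SD, n = 3 each; 0.679-fold, limma adjusted p = 0.0407). Its other 2 tested probe sets were also called lower (-0.42 and -1.01 on the log2 scale). Chka, the choline kinase at the start of the pathway, was at 0.38, and Chpt1, which makes the final product, at 0.09 (limma adjusted p = 0.12 and 0.752). Lpcat2, Lpcat3 and Lpcat4 pointed both ways, at -0.34, 0.29 and 0.63, and were not called (limma adjusted p = 0.425, 0.233 and 0.484). With 1 mouse left out, Agpat2 was called in 4 of 6 fits and Slc44a2 in 1. The Slc44a2 call was lost with median centring, at -0.28 on the log2 scale against -0.56 as deposited (limma adjusted p = 0.139), with no filter (0.0648) and with eBayes without trend (0.101). The Agpat2 call was lost with eBayes without trend (limma adjusted p = 0.0665). With median centring 7 genes of the list were called higher, as were 24.1 percent of all genes.

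Of 13 tested genes of surfactant protein processing, lamellar body formation and re-uptake, limma called 0, with 2 at an unadjusted p under 0.05, against 25.5 percent of all genes, and a median of 0.16. With median centring 3 were called higher, as were 24.1 percent of all genes. The smallest p was that of Ctsh, a cathepsin that cleaves the precursors of surfactant proteins B and C. It had signals of 9578, 12234 and 11636 in high fat mice, against 7084, 8757 and 8394 in control mice, and the groups did not overlap (1.38-fold, limma adjusted p = 0.0848). Adgrf5, the receptor through which type II cells limit the surfactant pool, was at 0.29 on the log2 scale (limma adjusted p = 0.228).

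Of 12 tested genes of surfactant clearance by alveolar macrophages, limma called 0, with 5 at an unadjusted p under 0.05, against 25.5 percent of all genes, and 4 were above 0 (median -0.24). With quantile normalization, median centring or the stricter filter 1 was called higher, and when the probe sets of each gene were averaged 1 was called lower. Pparg, a lipid-sensing nuclear receptor of macrophages and fat cells, had the smallest p, with 385, 352 and 432 in high fat mice, against 276, 218 and 233 in control mice (1.61-fold, limma adjusted p = 0.0571). The receptor chains for the growth factor GM-CSF, Csf2ra and Csf2rb, were at -0.26 and -0.3 (limma adjusted p = 0.413 and 0.48). Csf2, the gene for GM-CSF, went the other way, at 1.87, and was not called (limma adjusted p = 0.144). Its signals were low, at 148, 248 and 307 in high fat mice and 141, 16.9 and 97.6 in control mice. Of 10 tested macrophage markers 0 rose and 3 fell, among them Krt79 and Cd68 (0.403-fold and 0.465-fold), where 2.2 percent of all genes were called lower. The 2 markers above 0 were Adgre1 and Marco, and Marco belongs to both lists. Adgre1 had groups apart toward higher signals (1.29-fold, limma adjusted p = 0.14). The summed signals of the markers were 9310 to 22529 in high fat and 18571 to 22620 in control mice. Of 4 tested relatives of the lung collectins, the ficolin Fcna rose 2.48-fold (limma adjusted p = 0.0391, called in 1 of 6 fits with 1 mouse left out). Mbl1, Colec11 and Colec12 were not called, and 4.56 percent of all genes were called higher.

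**Figure D5:**
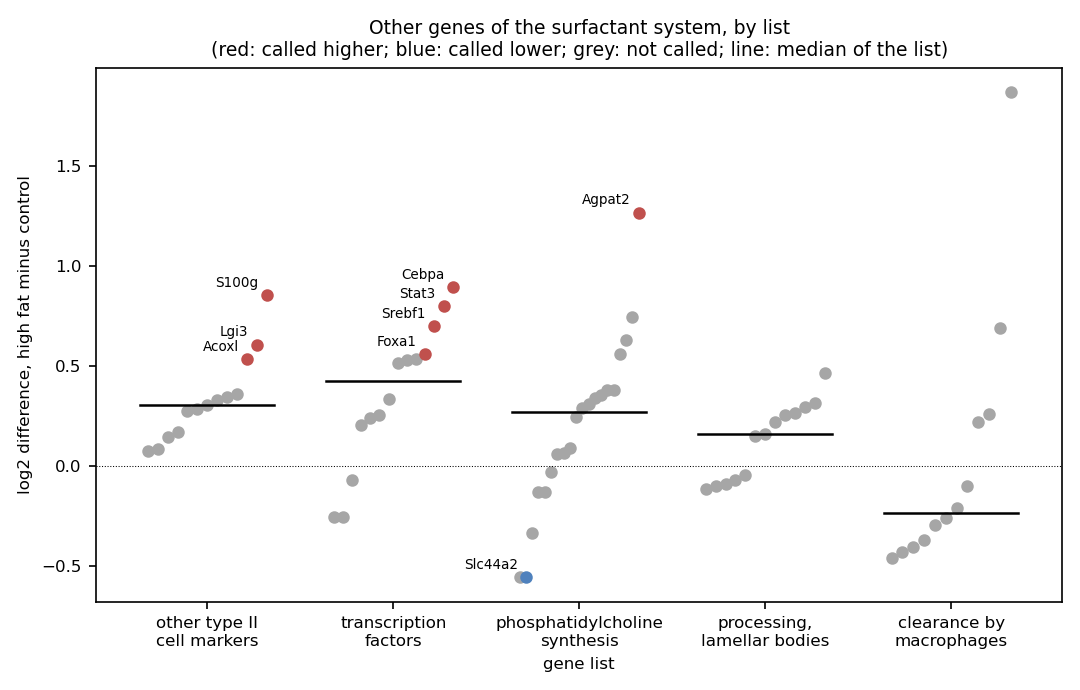
Log2 difference, high fat minus control (vertical axis), of each tested gene in 5 lists around the surfactant system, with called genes named and the median of each list as a line. Medians are 0.3 for type II cell markers, 0.42 for transcription factors, 0.27 for phosphatidylcholine synthesis, 0.16 for processing and -0.24 for clearance.

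For the counts of cell type markers, the shares over all genes were 4.56 percent called higher and 2.2 percent called lower. Above 0 were 56.4 percent of all genes, and 19.7 percent had groups apart toward higher signals. Of 10 type I cell markers, 0 rose and 1 fell, Akap5 (0.567-fold, limma adjusted p = 0.0132), with a median of 0.12. Their summed signals were 109966 to 119346 in high fat and 102899 to 135586 in control mice. Of 9 club cell markers, all above 0, Cckar alone was called, higher at 1.73-fold (limma adjusted p = 0.0149). Of 10 ciliated cell markers, 8 were above 0 and 6 had groups apart toward higher signals (median 0.49), and Dynlrb2 and Cfap126 rose 2.3-fold and 1.87-fold (limma adjusted p = 0.0149 and 0.0176). Their summed signal was 26826 to 36625 in high fat and 21308 to 21730 in control mice, with no overlap. Of 10 endothelial markers 2 fell, Emcn (0.49-fold) and Pecam1 (0.661-fold), and of 9 fibroblast markers Col1a1 rose 1.76-fold. Of 9 lymphocyte markers 3 fell, among them Cd8b1 (0.255-fold). Of 10 cardiac markers, all above 0 (median 1.24), Myl7 alone was called, higher at 3.16-fold, and its call was lost with eBayes robust (limma adjusted p = 0.0687). High fat replicate 1 stood highest: relative to the control mean, the mean log2 signal of the 10 was 2.46, 0.1 and 0.81 in high fat replicates 1 to 3. Of 8 skeletal muscle markers limma called 0, with 0 at an unadjusted p under 0.05, but their signal differed widely between mice. Relative to the control mean, the mean log2 signal of the 8 was 1.61, -2.16 and -2.47 in high fat replicates 1 to 3. In control replicates 1 to 3 it was 3.43, -2.95 and -0.48. The part of muscle in the other results was not tested. With 1 mouse left out, the calls numbered 0 to 3 lower for type I cells, 0 to 1 higher and 0 to 1 lower for club cells, 0 to 3 higher for ciliated cells, 0 to 2 lower for endothelium, 0 to 4 lower for macrophages, 0 to 1 higher for fibroblasts, 1 to 5 lower for lymphocytes and 0 to 1 higher for cardiac muscle. Pecam1 and Col1a1 were each called in 1 of these 6 fits. With eBayes without trend the counts were 1 lower each for macrophages and lymphocytes and 0 for the other 6 of these lists. The beta-actin gene Actb, given for scale, had 38955, 38473 and 41264 in high fat mice and 26977, 48218 and 35263 in control mice.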

How the data were processed

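Total RNA from lung was hybridised to 1 Affymetrix array per mouse, 3 high fat and 3 control. Per the submitters' processing notes the authors computed the deposited intensity values with MAS5; its version is not stated there. With 2 percent of probe sets trimmed at each end, every array averaged 500. Signals were floored at 1 before the log2 step. Probe sets with a mean log2 signal at or above the 40th percentile (6.14, a signal of 70.3) were tested with limma 3.58.1 in R 4.3.3 (lmFit, then eBayes with trend, two-sided). Adjustment was by Benjamini-Hochberg over 27022 probe sets, or over 12689 genes, each by its brightest tested probe set. Of 45101 probe sets, 34958 had 1 symbol, 932 several and 9211 none, and 64 controls were not tested. Within-gene ratios used exact permutation tests over mice (scipy 1.17.1). The array number limits precision, and saturation was not tested because the deposited values carry no flags for it. The members and gene lists were chosen with earlier results of these data known. Genes named are all members, up to 4 called genes by smallest p in each pathway list (the smallest p where none is called), up to 2 in each marker list, 5 genes of most similar profile, and Actb; the rule's Gapdh has no probe set with a single symbol. Lyz1, Lyz2, Nkx2-1, Foxa2, Etv5, Chka, Chpt1, Lpcat2, Lpcat3, Lpcat4, Adgrf5, Csf2, Csf2ra, Csf2rb, Adgre1, Marco, Mbl1, Colec11 and Colec12 are outside that rule and were named after their values were seen. No batch was tested, since the labels name none.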

Additional observations from a re-analysis of the deposited data

How the results depend on the processing

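Over 17 alternatives, 0 of 9 genes were called in all but median centring, where 5 were. Member probe sets called higher numbered 1, but 7 with median centring, and 0 to 1 with 1 mouse left out. Those called lower numbered 1, but 0 with median centring, quantile normalization, no filter, eBayes without trend and without replicate 1 of both groups, and 0 to 1 with 1 mouse left out. Calls in either direction numbered 2, but 7 with median centring and 1 in the other 4 of these settings, and 0 to 2 with 1 mouse left out. The median log2 difference of the 9 genes was 0.27, but 0.54 with median centring and 0.044 with quantile normalization, and 0.21 to 0.39 with 1 mouse left out. The cause was not tested. Signs that changed belonged to probe sets that were not called, besides Stat3, which was at -0.077 with the mean of its probe sets. Sftpc 1418639_at was at -0.061 with quantile normalization, -0.078 without replicate 1 of both groups and -0.12 (without control replicate 1) to 0.41 with 1 mouse left out. Pcyt1a 1438011_at was at 0.19 and 1450434_s_at at 0.18 with median centring, and 1450434_s_at ranged over -0.21 to 0.025 (without high fat replicate 3) with 1 mouse left out. Lpcat1 1420293_at was at -0.047 with array weights, -0.15 without control replicate 1, -0.01 and -0.16 without high fat replicates 1 and 3, and -0.17 without replicate 1 of both groups. Napsa 1423590_at was at 0.27 with median centring, 0.071 with array weights, 0.22 without replicate 1 of both groups and -0.28 to 0.204 with 1 mouse left out, above 0 without control replicate 1 or 2 or high fat replicate 1 or 3. The labels number mice 1 to 3 in both groups and do not say whether equal numbers mark a pairing. Deviations of same-numbered mice had correlations over probe sets of 0.17, 0.11 and -0.04, that of the number 1 mice being the highest of any pair. Different-numbered pairs ran from -0.21 to 0.13, and 3 of 6 mice correlated best with their own number. With the replicate block, calls numbered 2 and the median log2 difference was 0.27. Slc44a2, Foxa1 and Fcna were no longer called with the block (limma adjusted p = 0.0553, 0.0677 and 0.0562).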
